A study of Equus caballus with 4 samples.

Results

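Creatine kinases, enzymes of muscle glycolysis and myoglobin were compared between equine satellite cells treated with gamma-oryzanol (GO), a mixture of ferulic acid esters from rice bran, and control cells. Satellite cells are the resident stem cells of muscle, which fuse into myotubes when they differentiate. The 10 genes were *CKM*, *CKB*, *CKMT2*, *PYGM*, *PGAM2*, *ENO3*, *PFKM*, *LDHA*, *GAPDH* and *MB*. They were found by symbol among the noncontrol probes of the array, in a set chosen with earlier results of these data known. They are 10 of 15076 gene names on the array and had 26 of its 43603 probes. Primary cells from the semitendinosus muscle of 6-month-old colts were kept in differentiation medium and received 0.125 μM GO in DMSO for 24 h from day 2, while control cells received the same amount of DMSO (0.04 μl/ml). RNA was taken on day 3 and hybridized to 4 two-color arrays of 1 slide, GO-treated cells in Cy5 and control cells in Cy3 on every array. The dyes were not swapped, so a dye effect and an effect of GO cannot be told apart. The methods state that the cell line with the highest scores for viability and fusion was chosen from several horses. The labels number the arrays as biological replicates, but whether they held RNA of separate cultures or horses is not stated, so p-values may measure only technical spread.

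Contracting muscle draws ATP from several sources. Creatine kinase moves phosphate between creatine phosphate and ADP: the M subunit (*CKM*) is typical of muscle, the B subunit (*CKB*) occurs in brain, smooth muscle and many other cells including undifferentiated myoblasts, and *CKMT2* encodes the sarcomeric mitochondrial form. Glycogen is opened by phosphorylase (*PYGM* in muscle) and its glucose units pass through phosphofructokinase (*PFKM*), glyceraldehyde-3-phosphate dehydrogenase (*GAPDH*), phosphoglycerate mutase (*PGAM2*), enolase (*ENO3*) and lactate dehydrogenase (*LDHA*). Myoglobin (*MB*) binds oxygen in muscle fibers. *CKM*, *CKMT2*, *PYGM*, *PFKM*, *PGAM2*, *ENO3* and *MB* are treated here as the 7 muscle genes, and *CKB*, *LDHA* and *GAPDH* as the 3 broadly expressed ones.

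The probes are 60 bases long, and 8 of the 10 genes had a single probe. Each value of such a gene therefore rests on the stretch shown, written 5′ to 3′. The first 3 sequences belong to the creatine kinases, the next 6 to glycolysis in the order of the pathway, and the last to myoglobin. For *CKB* and *CKMT2* the middle 30 bases are given. Capitals mark the stop codon that ends the *CKM* probe and, in *GAPDH*, the 55 bases common to the 7 probes of that site.
CKM: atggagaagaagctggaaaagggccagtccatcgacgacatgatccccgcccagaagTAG
CKB: ggctaagacgttgctgatgctgaaataaac
CKMT2: cagacataaagaaatttctactctgagagt
PYGM: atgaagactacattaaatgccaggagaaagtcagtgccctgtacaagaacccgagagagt
PFKM: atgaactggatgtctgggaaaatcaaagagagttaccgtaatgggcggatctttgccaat
GAPDH: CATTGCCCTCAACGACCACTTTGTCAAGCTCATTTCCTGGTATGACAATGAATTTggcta
PGAM2: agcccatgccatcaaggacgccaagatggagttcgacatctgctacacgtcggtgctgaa
ENO3: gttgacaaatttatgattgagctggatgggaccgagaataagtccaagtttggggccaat
LDHA: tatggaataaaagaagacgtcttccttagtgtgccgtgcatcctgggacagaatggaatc
MB: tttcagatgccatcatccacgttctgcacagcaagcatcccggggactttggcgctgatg

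In the files' EquCab1 coordinates the whole probes lie at chr10:15982221-15982280 for *CKM*, chr24:44498088-44498147 for *CKB* and chr14:84012664-84012723 for *CKMT2*, all 3 on the minus strand. The probe of *PYGM* is at chr12:15298617-15298789 (minus), that of *PFKM* at chr6:65875804-65875944 (plus) and that of *GAPDH* at chr6:34317639-34317804 (plus). Those of *PGAM2* (chr4:14917699-14917758), *ENO3* (chr11:48376684-48377140) and *MB* (chr28:33023672-33023731) are on the minus strand, and that of *LDHA* (chr7:74431905-74431964) is on the plus strand. The probes of *PYGM*, *PFKM*, *GAPDH* and *ENO3* span 173, 141, 166 and 457 bases of the genome, so their 60 bases are broken there by gaps of 113, 81, 106 and 397 bases, and the other 6 are unbroken. None of the 26 probes shared a run of 20 bases with a probe of another name on the array (0 of 26).

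The values are log2 ratios, the signal in GO over that in control on 1 array. A probe or gene was called at an adjusted p of at most 0.05 (limma, Benjamini-Hochberg over all probes tested) and a fold change of at least 1.3, which is 0.38 on the log2 scale. All 26 probes were bright enough to be tested, those of *PYGM* and *MB* through the control channel alone. Of them 7 were called, all lower in GO-treated cells and 0 higher: the 5 probes of *CKB* and those of *CKMT2* and *PGAM2*. Of all 26832 probes tested, 8.94% were called, 5.61% lower and 3.33% higher. The 5 *CKB* probes overlap and measure 1 site, so genes were counted by their brightest probe, and 3 of 10 were called, against 8.81% of all 9680 genes (5.48% lower, 3.34% higher). The median log2 ratio of the 10 genes was -0.16, and that of all genes tested was 0.00. All 10 means were below 0, as were 49.4% of all genes, but *GAPDH* and *LDHA* turned above 0 under both other ways of normalizing the dyes, *GAPDH* to 0.34 and 0.89 and *LDHA* to 0.00 and 0.32, and *PYGM* did so without array 2 (0.01) or array 4 (0.07). With the channels as unpaired samples, with a plain one-sample test, and with dim probes kept in, limma or the plain test called 0 of the 26 probes, while 6, 7 and 7 of them had an unadjusted p under 0.05. Each time 5 of these were the overlapping *CKB* probes, which measure 1 site. The share of all probes with an unadjusted p under 0.05 was not counted. In a bulk culture, fewer cells that express a gene and less of its RNA per cell cannot be told apart.

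**Figure D1:**
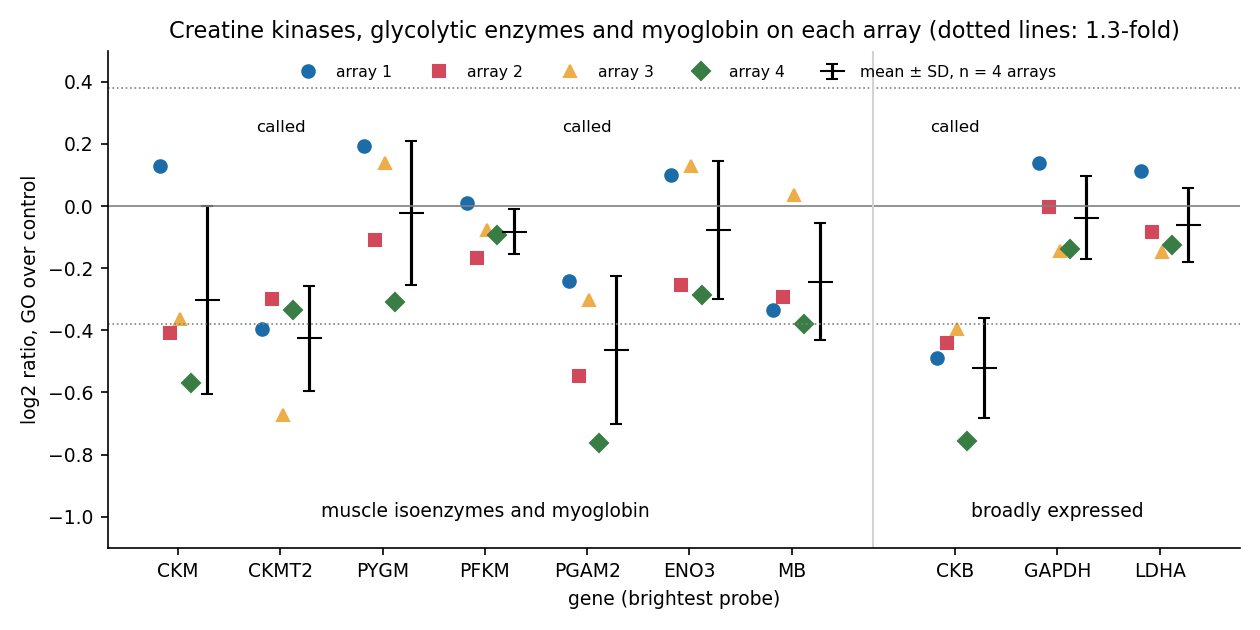
Log2 of the GO over control signal (y axis) for the brightest probe of each gene (x axis), muscle genes on the left and broadly expressed ones on the right. Colored symbols are the 4 arrays, black bars the mean ± SD, and "called" marks *CKMT2*, *PGAM2* and *CKB*, which lay below 0 on all 4 arrays.

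*CKB* had the lowest mean of the 10, though *CKMT2* was lower with median centering (-0.48 against -0.46) and without array 4 (-0.46 against -0.44), and *PGAM2* without array 1 (-0.54 against -0.53). The signal of its brightest probe was 2103, 1740, 1630 and 1231 units in GO-treated cells and 2955, 2360, 2147 and 2080 in control cells of arrays 1 to 4. GO-treated cells were the lower on every array, though the highest of them lay above the lowest control. The log2 ratios were -0.49, -0.44, -0.40 and -0.76, a mean of -0.52 ± 0.16 (SD, n = 4), or 1.43-fold lower (adjusted p = 0.00863, limma). The 5 probes begin at bases 1335 to 1339 of the transcript, each shifted by a single base. Their means ran from -0.52 to -0.45 with adjusted p-values of 0.00863 to 0.0112, which is one measurement repeated rather than 5. *CKB* kept its call without any one of the 4 arrays, with a mean between -0.56 and -0.44.

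*CKMT2*, the mitochondrial enzyme of muscle, had dim signals. They were 68.5, 55.4, 59.3 and 57.1 units in GO-treated and 90.0, 68.2, 94.5 and 72.1 in control cells. Each GO value was below the control value of its array, while array 1 in GO and array 2 in control overlapped. The mean log2 ratio was -0.43 ± 0.17 (SD, n = 4; array values -0.40, -0.30, -0.67 and -0.34), 1.34-fold lower with an adjusted p of 0.0166 (limma). The call was lost without array 2 (-0.47) or array 3 (-0.34), and with normexp background correction (-0.28).

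*CKM*, the cytosolic creatine kinase of muscle, was not called. Its signal was 5014, 6355, 4043 and 3417 units in GO-treated cells and 4582, 8440, 5200 and 5076 in control cells. GO-treated cells were higher on array 1 and lower on the other 3 arrays, with log2 ratios of 0.13, -0.41, -0.36 and -0.57. The mean was -0.30 ± 0.30 (SD, n = 4), with a 95% interval of -0.58 to -0.03 and an adjusted p of 0.113 (limma). Without array 1 it was -0.45 and passed both thresholds.

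**Figure D2:**
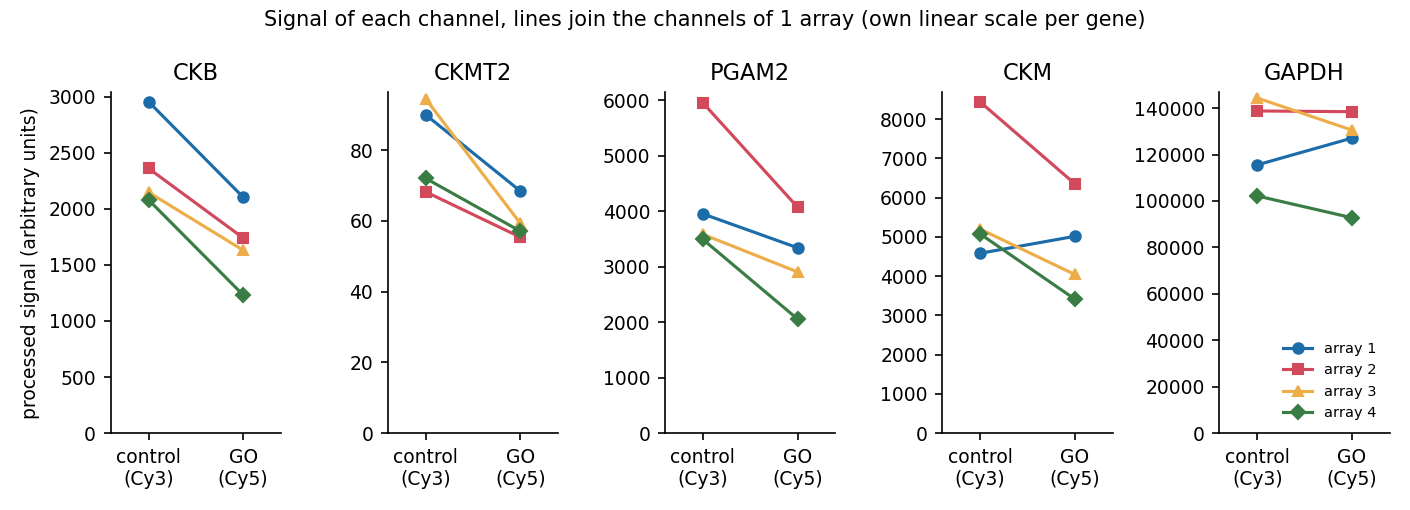
Processed signal in arbitrary units (y axes, linear from 0, with a scale of its own for each gene) in control and GO-treated cells, lines joining the channels of 1 array. Every line falls for *CKB*, *CKMT2* and *PGAM2*, whereas array 1 rises for *CKM* and *GAPDH*.

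*PGAM2*, the muscle phosphoglycerate mutase, was the glycolytic enzyme of the group that was called. Its signal was 3343, 4076, 2907 and 2059 units in GO-treated and 3954, 5957, 3586 and 3494 in control cells. All 4 arrays were lower in GO, by the least on arrays 1 and 3 and the most on array 4, and the channels overlapped between arrays. The log2 ratios of -0.24, -0.55, -0.30 and -0.76 had a mean of -0.46 ± 0.24 (SD, n = 4), 1.38-fold lower with an adjusted p of 0.0242 (limma). The call was lost without array 2 (-0.44), array 3 (-0.52) or array 4 (-0.36). It was also lost with arrays centered on their median and no lowess step, where the mean of -0.37 missed the fold threshold.

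The other enzymes of the pathway were not called, and their means were small. *PFKM* stood at -0.08 ± 0.07 (SD, n = 4), with array values of 0.01, -0.17, -0.08 and -0.09 and a 95% interval of -0.22 to 0.06. *ENO3* was above 0 on arrays 1 and 3 (0.10 and 0.13) and below on arrays 2 and 4 (-0.25 and -0.29), a mean of -0.08 with an interval of -0.30 to 0.14. *PYGM* split the same way, 0.19 and 0.14 against -0.11 and -0.31, with a mean of -0.02 and an interval of -0.25 to 0.20. These 3 intervals contain 0 and end short of the fold threshold on both sides. *PYGM* had signals of 17.2 to 30.6 units in GO and 18.4 to 33.0 in control cells. It was well above background in GO on 2 of 4 arrays, so it passed the filter only through control. *LDHA*, which makes lactate from pyruvate, had ratios of 0.11, -0.08, -0.15 and -0.12 and a mean of -0.06 ± 0.12 (SD, n = 4; interval -0.22 to 0.10).

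*MB* was also dim, with signals of 35.1, 60.0, 36.0 and 27.6 units in GO-treated and 44.3, 73.4, 35.2 and 36.0 in control cells. GO was lower on arrays 1, 2 and 4 and slightly higher on array 3, where the log2 ratio was 0.04 beside -0.34, -0.29 and -0.38. The mean of -0.24 ± 0.19 (SD, n = 4; interval -0.44 to -0.04) had an adjusted p of 0.0885 (limma). *MB* was well above background in GO on 3 of 4 arrays, so it passed the filter only through control.

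*GAPDH*, often taken as a reference transcript, was read at 3 sites of its transcript by 13 probes, of which 11 differ in sequence. The 5 probes beginning at bases 167 to 171 had means of -0.01 to 0.02. Array 1 gave 0.28 to 0.33 and array 4 -0.35 to -0.31 there, so the arrays lay apart by more than the probes of the site. The 1 probe at base 460 had a mean of -0.15, and the 7 probes at bases 942 to 947 had means of -0.20 to -0.02. Probes with the same sequence but different names, in 2 pairs, differed by 0.08 in their means and by up to 0.11 on a single array. Of the 13 probes 0 were called (adjusted p 0.107 to 0.989, limma), and 2 had an unadjusted p under 0.05.

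**Figure D3:**
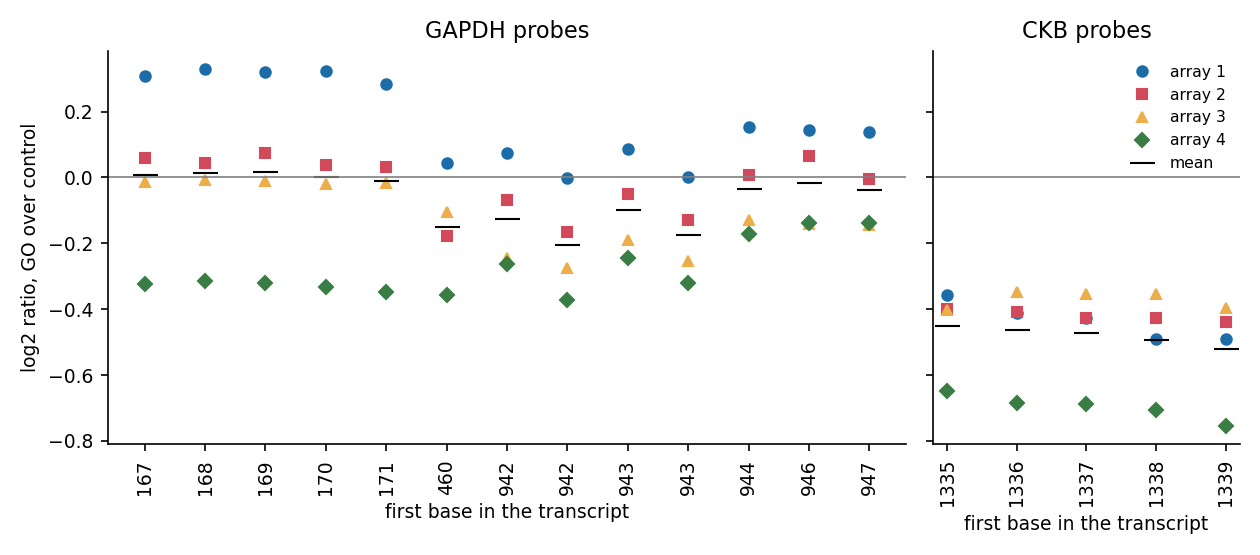
Log2 of the GO over control signal (y axis) for the 13 *GAPDH* probes and the 5 *CKB* probes, ordered by the first base of the probe in the transcript (x axis). Symbols are arrays and dashes means. The *GAPDH* means lie between -0.20 and 0.02, the *CKB* means between -0.52 and -0.45.

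The brightest *GAPDH* probe had signals of 92775 to 138441 units in GO and 102157 to 144343 in control cells, and log2 ratios of 0.14, -0.00, -0.15 and -0.14. Its mean was -0.04 ± 0.13 (SD, n = 4), with an interval of -0.20 to 0.13. This value depended on the dye normalization. With arrays centered on their median and no lowess step, 7 of the 13 probes were called higher in GO and the 13 means ran from 0.21 to 0.92. With normexp and loess they ran from -0.09 to 0.37 and 0 were called. The same centering left *CKB* at -0.46 and *CKMT2* at -0.48, both still called lower.

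The arrays did not give equal values. On array 1, 4 of the 10 genes were below 0, on array 3 there were 7, and on arrays 2 and 4 all 10. Array 1 held the highest ratio for 6 of 10 genes, against 31.3% of all tested probes, and array 4 the lowest for 6 of 10, against 25.4%. The 7 muscle genes averaged -0.08, -0.30, -0.16 and -0.39 on arrays 1 to 4, and the 3 broadly expressed genes -0.08, -0.18, -0.23 and -0.34. The medians were 0.01, -0.29, -0.08 and -0.34 for the muscle genes and 0.11, -0.08, -0.15 and -0.14 for the broad ones, whose means include *CKB*. Over all arrays the means were -0.23 and -0.21, but with median centering, which raised *GAPDH* and *LDHA*, they were -0.24 and 0.25, and with normexp and loess -0.18 and -0.05.

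Each gene was set against isoenzymes found in other tissues within each array, as the difference of their log2 ratios. *LDHA*, counted here as broadly expressed, was set against *LDHB*, so that pair is not one of a muscle gene with a broad one. Of 10 pairs planned, 7 could be formed. *PGAM1* and *CKMT1A* were not found by symbol, and *CKMT1B* was too dim. With 4 arrays the exact sign-flip test cannot give a two-sided p below 0.125, so no pair could pass. The log2 ratio of *CKM* was above that of *CKB* on all 4 arrays, by 0.62, 0.03, 0.03 and 0.18 and a mean of 0.22 ± 0.28 (SD, n = 4). The exact p was 0.125, or 0.219 after adjustment over the 7 pairs, and the 95% interval, which assumes a normal spread, was -0.23 to 0.66. The difference was large on array 1 and near 0 on arrays 2 and 3, and without array 1 its mean was 0.08. With normexp and loess the mean was 0.17 and the arrays no longer shared 1 sign (exact p = 0.25).

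In glycolysis the pairs ran both ways. *PYGM* lay below *PYGB*, the phosphorylase named for brain, on all 4 arrays, by a mean of -0.37 ± 0.35 (SD, n = 4) with an interval of -0.93 to 0.19. That mean was -0.20 without array 4 and also with normexp and loess. *PYGM* lay above *PYGL*, the liver form, on 3 of 4 arrays (mean 0.24, interval -0.23 to 0.72). *PFKM* was below *PFKP*, the platelet form, on all 4 arrays (mean -0.19, interval -0.37 to -0.01), and below *PFKL*, the liver form, on 3 of 4 (mean -0.16, interval -0.62 to 0.30, and -0.03 without array 1). *ENO3* and *ENO1*, the ubiquitous enolase, differed by -0.05 (interval -0.48 to 0.37), below 0 on 3 of 4 arrays. *LDHA* was below *LDHB*, the heart form, on all 4 arrays, by -0.25 ± 0.11 (SD, n = 4; interval -0.42 to -0.08). The exact p was 0.125 for the 4 pairs with 1 sign on all arrays and 0.25 to 0.875 for the other 3. The mean of *ENO3* minus *ENO1* moved to -0.44 with normexp and loess and to -0.98 with median centering, *PYGM* minus *PYGL* to -0.04 with median centering, and *PFKM* minus *PFKP* to -0.30. *LDHA* minus *LDHB* shrank to -0.15 with normexp and loess and to -0.07 with median centering, where the arrays no longer shared 1 sign (exact p = 0.5).

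**Figure D4:**
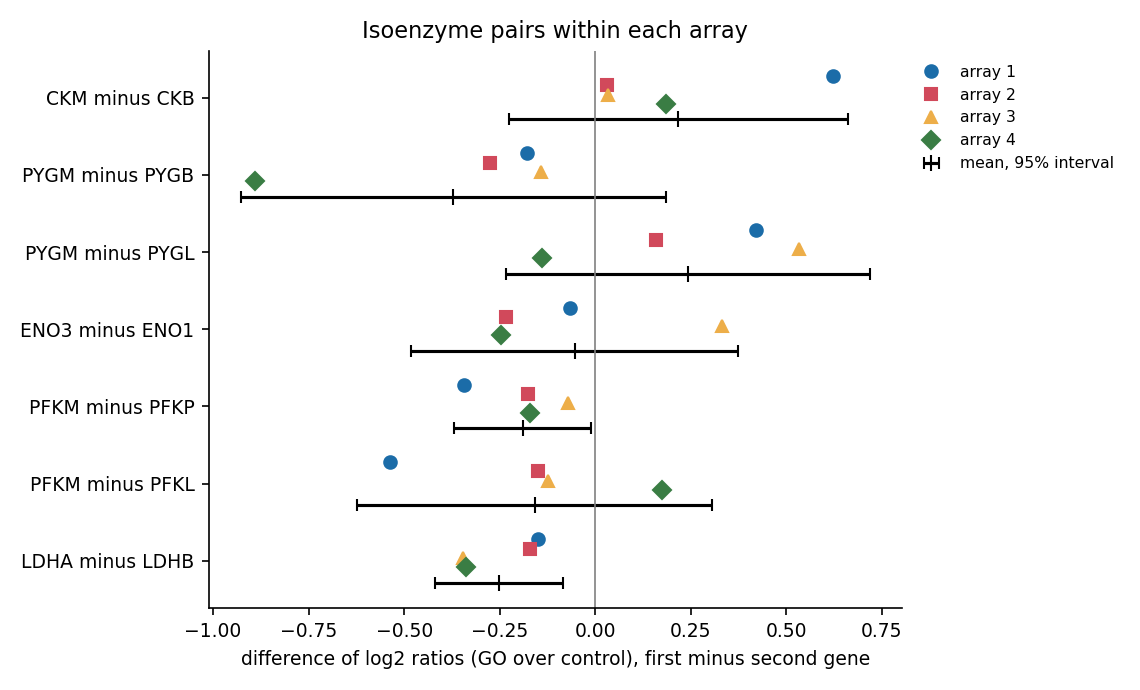
Difference between the log2 ratios of the isoenzymes of a pair on each array (x axis), for 7 pairs (y axis). Symbols are the arrays and bars the mean with its 95% interval. All 4 symbols lie on the same side of 0 for *CKM* minus *CKB*, *PYGM* minus *PYGB*, *PFKM* minus *PFKP* and *LDHA* minus *LDHB*.

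Apart from *CKB*, the partners themselves were not called. *PYGB* was higher on all 4 arrays at 0.35 ± 0.18 on average (SD, n = 4), and its adjusted p was 0.0310 (limma), but it fell short of the 1.3-fold threshold. *PYGL* was lower on all 4 arrays, -0.27 ± 0.10 (SD, n = 4) with an adjusted p of 0.0333 (limma), also short of it. *LDHB* stood at 0.19 (adjusted p = 0.0680, limma) and was called only with median centering (0.39), *PFKP* at 0.11, *PFKL* at 0.08 and *ENO1* at -0.02. *ENO1* turned to 0.37 and 0.92 under the other dye normalizations, a shift like that of *GAPDH*.

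Of 39 other gene symbols of glycolysis, glycogen and lactate transport, 36 were found on the array and 29 were tested. *PKM* and *PKM2* among the 39 name the same gene. Unnamed probes (15728 of 43603) were not searched, so a symbol not found may still have a probe. Of these, 2 were called higher and 1 lower, against 3.34% and 5.48% of all genes tested. The median log2 ratio of the 29 was 0.06, with 11 of 29 below 0. *ALDOC*, the aldolase found in brain, was higher on all 4 arrays with ratios of 0.62, 0.31, 0.89 and 0.70, 1.55-fold on average (adjusted p = 0.0105, limma). *PFKFB3*, which sets the level of fructose-2,6-bisphosphate and so the pace of phosphofructokinase, had ratios of 0.65, 0.33, 0.38 and 1.49 (1.64-fold, adjusted p = 0.0461, limma). It was well above background in control on 3 of 4 arrays, so it passed the filter only through the GO channel, where it was higher. Its mean was 0.73, 0.84 and 0.82 without array 1, 2 or 3, where it lost its call. It was 0.45 and called without array 4, and 0.18 and not called with normexp and loess. *GPD1*, which makes glycerol-3-phosphate from a glycolytic intermediate, was lower with ratios of -0.11, -0.53, -1.32 and -0.84 (1.62-fold, adjusted p = 0.0422, limma). It was well above background in GO on 2 of 4 arrays, so it passed the filter only through control, where it was higher. Its call was lost without array 2, 3 or 4 and with normexp and loess (-0.19).

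Among 11 genes of creatine supply and adenylate handling, 9 were tested, with a median of 0.02. Of the 9, 2 were called lower and 0 higher, against 5.48% and 3.34% of all genes tested. *GATM*, the first enzyme of creatine synthesis, had ratios of -0.76, -0.37, -0.48 and -0.39 (1.42-fold lower, adjusted p = 0.0116, limma). *AMPD1*, the AMP deaminase of muscle, had ratios of -1.08, -0.61, -0.29 and -0.38 (1.50-fold lower, adjusted p = 0.0287, limma) and was not called without array 2. *GATM* missed the fold threshold with normexp and loess (-0.35). Both were lowest on array 1, the array on which *CKM* was highest.

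Among 13 globin and hypoxia genes other than *MB*, 11 were tested, with a median of 0.22 and 2 of 11 below 0. Of the 11, 1 was called higher and 0 lower, against 3.34% and 5.48% of all genes tested. The 1 called was *NDRG1*, a gene that rises when oxygen is low, with ratios of 0.79, 0.39, 0.49 and 0.74 (1.52-fold higher, adjusted p = 0.00771, limma). With normexp and loess its mean of 0.35 missed the fold threshold.

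The cultures carried markers of myotubes, the fused cells that carry the muscle isoenzymes. Of 24 markers, 17 were found by symbol and 16 were tested. Of the 16, 12 were called lower in GO and 0 higher, against 5.48% and 3.34% of all genes tested. The median of the 16 was -0.60. By array it was -0.33, -0.62, -0.64 and -0.66, beside 0.05, -0.27, -0.15 and -0.32 for the 10 genes described above. The summed signal of the 17 markers was 167640 to 224432 units in GO and 273243 to 360328 in control cells, and these ranges did not overlap. The sum rests mostly on a few bright probes and on signals after the lowess step. *MYH3* alone had 39389 to 49521 units in GO and 67971 to 94635 in control cells. With the deposited ratios the largest falls were those of the myosin heavy chains *MYH2* (2.16-fold, adjusted p = 0.00462, limma), *MYH8* (2.11-fold, 0.00824) and *MYH3* (1.78-fold, 0.00338). With median centering 4 of the 16 were called, and *MYH3* stood at -0.15. *MYH2* was well above background in GO on 3 of 4 arrays, so it passed the filter only through control, where it was higher. Its mean was -0.39 with normexp and loess, beside -1.11 with the deposited ratios. The part of myotube markers in the values of *CKB*, *CKMT2* and *PGAM2* was not tested.

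Of the markers of other cells, 1 of 6 tested fibroblast genes was called, against 8.81% of all genes tested. The gene was *PDGFRA*, 1.83-fold higher (adjusted p = 0.0199, limma). Its signals were dim, 42.7 to 69.5 units in GO and 21.8 to 46.4 in control cells. It was not called without array 2. With normexp and loess its mean of 0.37 missed the fold threshold, and a different fibroblast gene was called. The summed signal of the 7 fibroblast genes with a probe was 285135 to 396957 units in GO and 275884 to 440018 in control cells. None of the 4 adipocyte and 4 endothelial markers with a probe was well above background on any array. Of the markers of smooth muscle and of leukocytes, 2 each were tested and 0 called (limma), with an unadjusted p under 0.05 for 1 leukocyte gene.

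**Figure D5:**
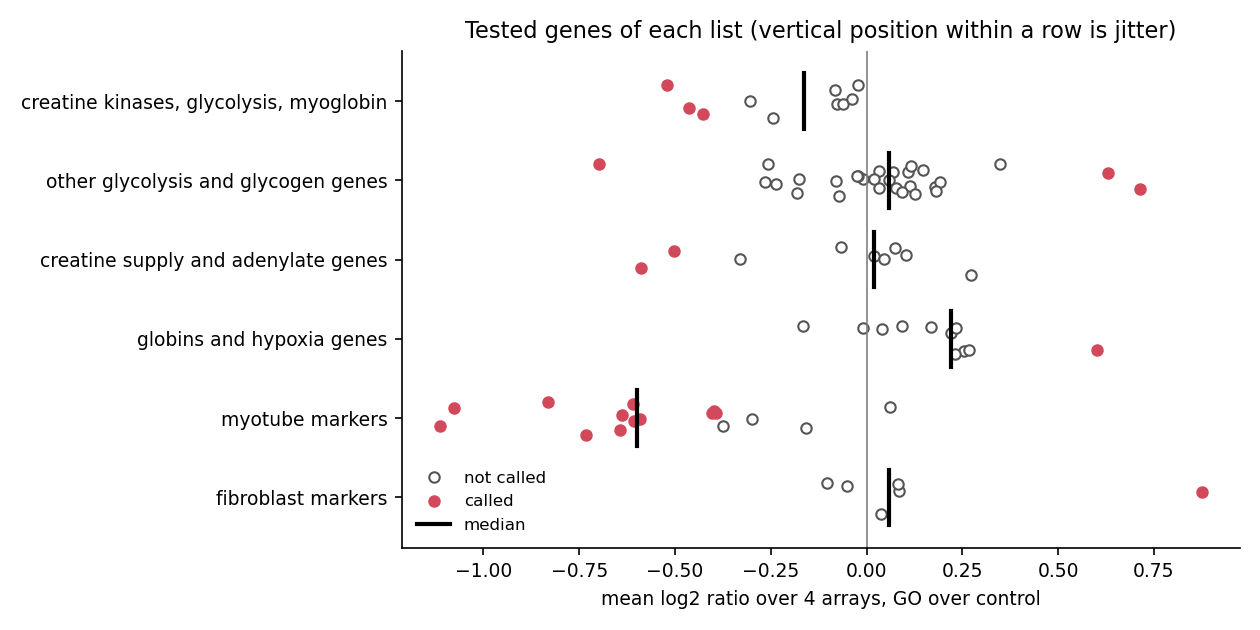
Mean log2 of the GO over control signal on 4 arrays (x axis) of every tested gene of 6 groups (rows). Filled circles were called, open circles were not, and bars are medians. The myotube markers have a median of -0.60, and the 10 creatine kinase, glycolysis and myoglobin genes one of -0.16.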

How the data were processed

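RNA of GO-treated and control cells was measured on 4 two-color arrays. The authors read the scans with Feature Extraction, whose version is 10.10.1.1 in the headers. Intensity was deposited for each channel as a raw, a background-subtracted and a processed signal. The processed signal was detrended over the array and its dyes were balanced by a linear and a lowess step. The deposited log10 ratios are of processed Cy5 (GO) over Cy3 (control) signals, and were multiplied by log2 of 10. The authors' table of the whole series was not used, since it holds these ratios again.

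Control spots were left out, as were outlier spots among the rest (10 to 19 an array), and spots of a probe were averaged. Of the noncontrol spots 0 were saturated. A probe was tested if it was well above background on all 4 arrays in the GO or in the control channel, as 26832 of 43603 were. In the GO channel 57.4 to 67.0% of spots were well above background, and 63.5 to 68.9% in the control channel. The number of arrays limits the precision. The ratios were tested against 0 with limma (version 3.58.1, R 4.3.3), two-sided, with an intercept alone and Benjamini-Hochberg adjustment. Intervals are at 95%. The study's methods give the thresholds and do not name the test. Its list of changed genes at those thresholds is far shorter than the 2399 probes called here. *CKB*, *CKMT2* and *PGAM2* are not in that list. The fit was tested on simulated data, where recovery of changes about the size of that of *CKB* was low. A gene was read from its brightest probe. The files named 24962 probes, gene numbers 2426 and accessions 487 more, through RefSeq (TB-T2T, names only). Isoenzyme pairs were compared with an exact sign-flip test over the arrays. Figures were drawn with matplotlib (version 3.10.9).

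All 10 members are named, with each called gene of the glycolysis and creatine lists, each isoenzyme partner and the 3 largest called changes of every other list. Members, lists and tests were chosen with earlier results of these data known. The alternatives were normexp correction (offset 50) with loess, median centering without lowess, no filter on dim probes, a filter on both channels, a plain one-sample test, channels as unpaired samples, array weights, the mean of all probes of a symbol, and leaving out each array.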

Additional observations from a re-analysis of the deposited data

How the results depend on the processing

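By Dixon's criterion for 4 values, no array stood apart from the other 3 in any of the 34 gene and pair values examined. The direction was kept by *CKM*, *CKB*, *CKMT2*, *PGAM2*, *MB*, *ENO3* and *PFKM* under every alternative that gave them a value. Without pairing of the channels (no replicate block), with the plain one-sample test and with dim probes kept in, 0 of 26 member probes and 0 of 10 member genes were called, and 0 of the glycolysis, creatine, hypoxia and fibroblast genes. The myotube markers called numbered 3, 0 and 5 under these. Median centering called 13 member probes, 8 glycolysis, 2 hypoxia, 4 myotube and 4 fibroblast genes, and both-channel filtering 1 glycolysis gene. Normexp with loess called 1 glycolysis, 1 creatine and 0 hypoxia genes. Without 1 array each, calls ran from 5 to 8 member probes, 1 to 4 member genes, 1 to 2 glycolysis, 1 to 3 creatine, 8 to 13 myotube and 0 to 1 fibroblast genes. Of all probes, 370 were called without the block, 147 with the plain test, 908 without the filter, 1297 with normexp and loess and 3390 with median centering, against 2399. The share higher in GO among the calls was 37.3%, and 17.8% without the block, 19.7% with the plain test and 51.3% with median centering.

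Directions turned for *LDHA* (0.00055 with normexp, 0.32 with centering), *GAPDH* (0.34 and 0.89), *ENO1* (0.37, 0.92 and, with the mean of its probes, 0.022) and *PYGM* minus *PYGL* (-0.042 with centering). Without 1 array, *PYGM* ranged from -0.094 to 0.073, *ENO1* from -0.087 to 0.035, *PFKL* from -0.079 to 0.19 and *ENO3* minus *ENO1* from -0.18 to 0.010. The cause was not tested. Dim probes, such as those of *CKMT2*, *PYGM* and *MB*, limit what their ratios can show, though *CKMT2* was well above background on all 4 arrays in both channels.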

Other observations

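*SLC6A8*, which carries creatine into cells, was chosen after its values were seen. Its log2 ratios were 0.04, -0.33, -0.53 and -0.50, a mean of -0.33 ± 0.26 (SD, n = 4; adjusted p = 0.0715, limma). As with *CKM*, array 1 was the one above 0, and without it the mean was -0.45 and passed both thresholds. Of the 29 other glycolysis and glycogen genes tested, 5 were lower and 6 higher on all 4 arrays. Of the 11 globin and hypoxia genes, 1 was lower and 6 were higher on all 4. The matching shares of all genes tested were not counted, so nothing about the lists is read from these counts.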
